A study of Mus musculus with 6 samples.

Results

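Expression of 9 genes of the epidermal growth factor (EGF) receptor system was compared between 2 sets of whole mouse melanomas. The genes were 3 receptor genes (Egfr, Erbb2 and Erbb3) and 6 ligand genes (Btc, Areg, Ereg, Hbegf, Tgfa and Nrg1), taken by symbol from a table of 54532 genes, and all 9 were found and passed the expression filter. Tumors labelled Gli2CA (n = 3) grew from cells with an active form of Gli2, through which Hedgehog signals reach target genes, and tumors labelled NTC (n = 3) grew from cells with a non-targeted control. Both sets came from the melanoma line labelled BRAFV600EPTEN-/-, kept in puromycin at 1 ug/mL, implanted in C57Bl/6 mice at 1000000 cells in 100 uL of matrigel and PBS, and harvested at day 28. The sources used here do not give the age or sex of the mice, the promoter driving the active Gli2, the number of clones or whether each tumor came from a separate mouse. The p-values set the difference between the groups against the spread among samples within each group. Whether that spread is between mice is therefore not known, and part of it may be technical.

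The ErbB receptors are receptor tyrosine kinases that signal as pairs. EGFR binds amphiregulin (Areg), epiregulin (Ereg), betacellulin (Btc), heparin-binding EGF-like growth factor (Hbegf) and transforming growth factor alpha (Tgfa), ERBB3 binds neuregulin 1 (Nrg1) and has little kinase activity of its own, and ERBB2 binds no known ligand and serves as a partner for the others. The ligands are made as membrane-bound precursors and released by ADAM proteases, and active receptors feed the RAS, RAF and ERK cascade, in which BRAF acts.

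Levels are FPKM (fragments scaled by transcript length and library size) as the authors deposited them, and the fragments behind them, recovered from the values, totalled 16225361 to 22273959 per library. Gli2 itself stood at 3.22, 5.82 and 1.61 FPKM in the tumors labelled Gli2CA and at 8.88, 11.1 and 7.96 FPKM in NTC tumors, which goes against the label, and Ptch1, a direct Gli target, averaged 7.25 FPKM in Gli2CA and 20.3 FPKM in NTC. Whether fragments of the introduced construct count toward the mouse gene is not given, so each group keeps its label as a name. Markers of melanocytes also bore on the label of the tissue: Sox10, a neural crest factor, lay at 51.5 to 97.1 FPKM in Gli2CA and 83.7 to 177 FPKM in NTC, and S100b at 60.3 to 139 FPKM in Gli2CA and 95.1 to 173 FPKM in NTC, while the pigment genes Tyrp1 and Slc45a2 were listed at 0 in all 6 tumors and Tyr, Dct and Mlana did not exceed 0.504 FPKM in any tumor. The 12 melanocyte and melanoma markers summed to 128 to 227 FPKM in Gli2CA and 229 to 371 FPKM in NTC, which narrowly did not overlap. The 6 that passed the expression filter all averaged lower in Gli2CA, and 0 of them passed the main test described below. In bulk tumors, fewer cells of a type and less RNA per cell cannot be told apart.

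Egfr and Btc differed most between the groups and in opposite directions, with Egfr below and Btc above the whole NTC range in each of the 3 tumors labelled Gli2CA. Neither passed the threshold in the main test, which was limma on log2(FPKM + 0.5) with a Benjamini-Hochberg adjusted p under 0.05 over 15820 genes. Of the 9 members 0 were called, where 0.348% of all tested genes were. At an unadjusted p under 0.05 there were 4 of 9 members, where 27.5% of all tested genes were at that level, and 4 of 9 is not far above that share. Limma-voom on the recovered fragments called 1 member, Egfr, where it called 0.664% of its tested genes. Among the alternative settings, those that called a member did so against backgrounds that differed, for example 0.512% of tested genes with a pseudocount of 0.1, 1.03% with a filter at a mean FPKM of 1, 0.613% without Gli2CA replicate 2, 5.53% with only protein-coding genes kept and rescaled and 10.0% with samples weighted by their quality. The groups did not overlap for 3 of 9 members, near the 33.8% of all tested genes.

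**Figure D1:**
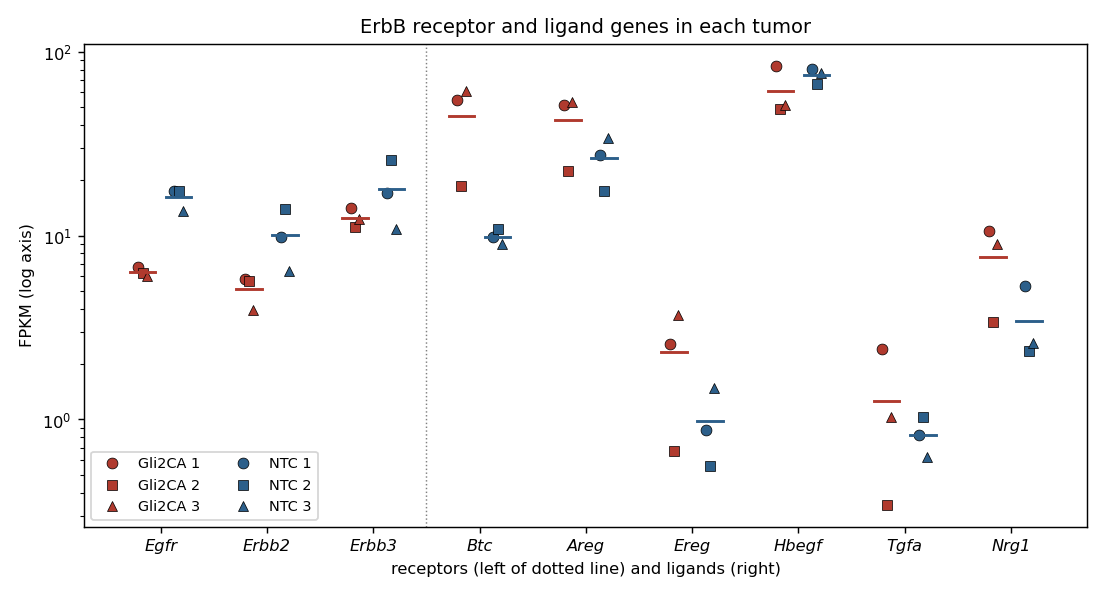
FPKM of each receptor and ligand gene in each tumor on a log axis, with Gli2CA tumors (red) left of NTC tumors (blue), symbols for the replicate number and a bar at each group mean (n = 3 each). Egfr and Erbb2 are lower and Btc is higher in all 3 Gli2CA tumors, while the other 6 genes overlap between the groups.

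Egfr (ENSMUSG00000020122, chromosome 11, 16752203 to 16918158, plus strand, GENCODE M21 on GRCm38), the receptor for most of these ligands, stood at 6.75, 6.30 and 6.04 FPKM in Gli2CA replicates 1, 2 and 3 and at 17.5, 17.6 and 13.5 FPKM in NTC replicates 1, 2 and 3. These values came from 392, 302 and 360 fragments in Gli2CA and 1154, 1097 and 709 fragments in NTC. The 3 Gli2CA tumors lay within a narrow range and the groups did not overlap. The means were 6.36 ± 0.362 FPKM in Gli2CA and 16.2 ± 2.32 FPKM in NTC (SD, n = 3 each), a ratio of 0.392, and the log2 fold change was -1.28 (SE 0.22, 95% interval -1.77 to -0.78). Its adjusted p in limma was 0.05003, just short of the threshold, and only 0.455% of tested genes had a smaller p. The call depended on the setting: Egfr passed in 6 of 18 alternatives, among them limma-voom (adjusted p = 0.0475), and in none of the 6 fits that left out 1 library (0.0597 to 0.212).

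Erbb2 (ENSMUSG00000062312, chromosome 11, 98412470 to 98437716, plus strand), the partner receptor, stood at 5.79, 5.68 and 3.95 FPKM in Gli2CA and at 9.82, 14.0 and 6.46 FPKM in NTC. The groups did not overlap, but the lowest NTC tumor was close to the highest Gli2CA tumor. The log2 fold change was -0.86 (SE 0.31), with an adjusted p of 0.126 in limma. Exons of Erbb2 overlap those of Mien1 on the opposite strand, and because the strand setting of the counting is not given, fragments from the shared stretch cannot be told apart. Mien1 averaged 31.6 FPKM in Gli2CA and 18.5 FPKM in NTC, opposite in direction to Erbb2.

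Erbb3 (ENSMUSG00000018166, chromosome 10, 128567523 to 128589652, minus strand), the neuregulin receptor, stood at 14.1, 11.2 and 12.3 FPKM in Gli2CA and at 17.1, 25.8 and 10.8 FPKM in NTC. The groups overlapped, since NTC replicate 3 was the lowest of the 6 tumors and NTC replicate 2 the highest. The log2 fold change was -0.42 (SE 0.31, 95% interval -1.13 to 0.28, adjusted p = 0.395 in limma), an interval that holds no change as well as a difference as large as that of Erbb2. Without NTC replicate 2 it was -0.12, and without NTC replicate 3 it was -0.73. Its sign turned, to 0.040 (SE 0.25), when the gene length trend between libraries was removed. Sox10 was also highest in NTC replicate 2, at 177 FPKM, and its part in the Erbb3 values was not tested.

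The order of the 3 receptors differed only in part between the groups. Levels of different genes are per length here, but the length is the mean over annotated transcripts, so the order is that of the deposited scale. In all 3 tumors labelled Gli2CA the order was Erbb3, Egfr and Erbb2, with 2.08, 1.77 and 2.04 times as much Erbb3 as Egfr on the FPKM scale. In NTC tumors the ratio of Erbb3 to Egfr was 0.976, 1.47 and 0.799, so Egfr was the highest receptor gene in 2 of 3, by a small margin in replicate 1. NTC replicate 2 had the same order as the Gli2CA tumors. Egfr made up 25.4% to 27.2% of the summed receptor FPKM in Gli2CA and 30.6% to 43.9% in NTC. Erbb2 held 17.7% to 24.6% in Gli2CA and 21.0% to 24.4% in NTC, and these ranges overlap.

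Btc (ENSMUSG00000082361, chromosome 5, 91357261 to 91402994, minus strand), which encodes betacellulin, stood at 54.4, 18.5 and 61.2 FPKM in Gli2CA and at 9.79, 10.8 and 8.95 FPKM in NTC. The fragments numbered 2213, 622 and 2557 in Gli2CA and 451, 474 and 328 in NTC. All Gli2CA tumors lay above all NTC tumors, and Gli2CA replicate 2 was far below the other 2 of its group. That library also stood apart over all tested genes. Its log2 values correlated at 0.940 and 0.947 (Pearson r) with Gli2CA replicates 1 and 3, which correlated at 0.975 with each other. Its sample weight was 0.348, where those of the other libraries ranged from 0.743 to 2.12. The cause was not tested. The means were 44.7 ± 22.9 FPKM in Gli2CA and 9.86 ± 0.949 FPKM in NTC (SD, n = 3 each), a ratio of 4.54, and the log2 fold change was 1.96 (SE 0.41, 95% interval 1.02 to 2.89, adjusted p = 0.0658 in limma). Without Gli2CA replicate 2 the log2 fold change was 2.49 and the adjusted p in limma was 0.00899, while the other 5 fits that left out 1 library did not pass (0.0701 to 0.233).

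Areg (ENSMUSG00000029378, chromosome 5, 91139599 to 91148432, plus strand) and Ereg (ENSMUSG00000029377, chromosome 5, 91074622 to 91093646, plus strand) neighbour Btc, and the 3 ligand genes are the only annotated protein-coding genes of the table in the 328.4 kb that they span. Areg stood at 51.6, 22.4 and 53.2 FPKM in Gli2CA and at 27.5, 17.4 and 34.1 FPKM in NTC. Ereg stood at 2.58, 0.672 and 3.71 FPKM in Gli2CA and at 0.881, 0.562 and 1.49 FPKM in NTC. Both genes put the 6 tumors in the same order, with Gli2CA replicates 3 and 1 highest, then NTC replicates 3 and 1, then Gli2CA replicate 2 and NTC replicate 2. The groups overlapped for both because of Gli2CA replicate 2, and the log2 fold changes were 0.63 (SE 0.38) for Areg and 0.79 (SE 0.48) for Ereg, with adjusted p of 0.304 and 0.309 in limma. When Gli2CA replicate 2 was left out these were 1.03 for Areg and 1.33 for Ereg, and when Gli2CA replicate 3 was left out they were 0.42 for Areg and 0.41 for Ereg. Areg also moved to 0.36 without NTC replicate 2. The 95% intervals, -0.23 to 1.48 for Areg and -0.30 to 1.89 for Ereg, hold no change as well as an increase of the size of the Nrg1 estimate. Btc ordered the tumors otherwise, with all 3 Gli2CA tumors first. Exons of Ereg overlap those of the antisense gene Gm19610, which averaged 5.04 FPKM in Gli2CA and 2.26 FPKM in NTC, above Ereg in level, and without a strand setting the shared fragments cannot be told apart.

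The stretch just before the annotated start is printed from RefSeq (GRCm38.p6) for Egfr and Btc, the receptor and the ligand with the smallest p. It is also printed for Areg, a neighbour of Btc that, like Ereg, did not separate the groups. No window was available for Ereg, and those read for Erbb2 and Tgfa are not printed. Each run holds the 250 bases before the start in the direction of transcription, at chr11:16751953-16752202 (plus strand) for Egfr, chr5:91402995-91403244 (minus strand) for Btc and chr5:91139349-91139598 (plus strand) for Areg. Capitals mark matches on either strand to 5 motifs, the Gli site GACCACCCA, the cyclic AMP response element TGACGTCA, the AP-1 site TGANTCA, the TATA box TATAAA and the GC box GGGCGG, none of which overlapped another here.
Egfr: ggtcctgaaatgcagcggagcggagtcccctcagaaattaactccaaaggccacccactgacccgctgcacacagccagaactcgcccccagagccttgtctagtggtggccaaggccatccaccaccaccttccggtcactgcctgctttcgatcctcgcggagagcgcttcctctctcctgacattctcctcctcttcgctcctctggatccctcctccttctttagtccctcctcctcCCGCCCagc
Btc: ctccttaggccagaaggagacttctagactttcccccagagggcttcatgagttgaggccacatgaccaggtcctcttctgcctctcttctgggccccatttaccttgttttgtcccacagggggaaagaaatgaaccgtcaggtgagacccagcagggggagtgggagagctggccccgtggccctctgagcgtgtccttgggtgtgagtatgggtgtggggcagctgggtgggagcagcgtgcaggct
Areg: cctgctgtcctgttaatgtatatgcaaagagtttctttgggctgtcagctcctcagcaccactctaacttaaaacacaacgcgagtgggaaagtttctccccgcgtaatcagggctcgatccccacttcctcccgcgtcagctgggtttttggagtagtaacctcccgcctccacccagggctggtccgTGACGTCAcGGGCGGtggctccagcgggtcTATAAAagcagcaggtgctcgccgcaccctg
Areg held a cyclic AMP response element 61 to 54 bases before the start, a GC box 52 to 47 bases before it and a TATA box 31 to 26 bases before it. Egfr held 1 GC box, on the minus strand 9 to 4 bases before the start, and Btc held no match to the 5 motifs. Among 32851 windows of this length over all RefSeq genes, 1.55% held the cyclic AMP response element, 12.4% the TATA box, 32.7% the GC box, 6.75% the AP-1 site and 0.225% the Gli site. These matches are a description of letters in 1 window per gene and were not tied to the expression values.

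Hbegf (ENSMUSG00000024486, chromosome 18, 36504927 to 36515805, minus strand), the heparin-binding ligand, was the ligand gene with the highest mean FPKM in both groups, at 83.7, 48.5 and 51.1 FPKM in Gli2CA and 80.3, 66.7 and 76.2 FPKM in NTC. Gli2CA replicate 1 was the highest of the 6 tumors and the other 2 of its group were the lowest. The log2 fold change was -0.32 (SE 0.26, 95% interval -0.90 to 0.26, adjusted p = 0.434 in limma). It was -0.57 when Gli2CA replicate 1 was left out and -0.18 when Gli2CA replicate 2 was. It was the only ligand gene of the 6 with a negative estimate.

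Nrg1 (ENSMUSG00000062991, chromosome 8, 31814551 to 32884029, minus strand), the ligand of ERBB3, stood at 10.6, 3.40 and 9.05 FPKM in Gli2CA and at 5.34, 2.36 and 2.59 FPKM in NTC. Gli2CA replicate 2 lay inside the NTC range. The log2 fold change was 1.00 (SE 0.44), with an unadjusted p of 0.0490 and an adjusted p of 0.180 in limma. The gene has 18 annotated transcripts, and the table does not separate its isoforms.

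Tgfa (ENSMUSG00000029999, chromosome 6, 86195223 to 86275719, plus strand) was low, at 2.42, 0.343 and 1.03 FPKM in Gli2CA and 0.819, 1.03 and 0.629 FPKM in NTC, from 94, 11 and 41 fragments in Gli2CA and 36, 43 and 22 in NTC. Gli2CA replicates 1 and 2 were the highest and the lowest of the 6 tumors. The estimate of 0.24 on the log2 scale (SE 0.45, adjusted p = 0.748 in limma) turned to -0.21 without Gli2CA replicate 1.

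As groups, the 3 receptor genes had negative estimates and 5 of the 6 ligand genes had positive ones, with medians of -0.86 for receptors and 0.71 for ligands, where the median over all tested genes was -0.04. Across all genes, fold changes were lower for longer transcripts: the median was 0.38 in the shortest quartile of genes and -0.34 in the longest, whose median lengths were 701 and 3148 bases. Annotated transcripts of the receptor genes averaged 2955 bases for Egfr, 3277 for Erbb2 and 6016 for Erbb3. Those of the ligand genes averaged 4128 bases for Ereg and 1215 to 2070 bases for the other 5. With the length trend removed per library, the medians were -0.55 for receptors and 0.86 for ligands. Egfr then differed by -0.99 and Btc by 2.12 on the log2 scale, both at an adjusted p of 0.0593 in limma.

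**Figure D2:**
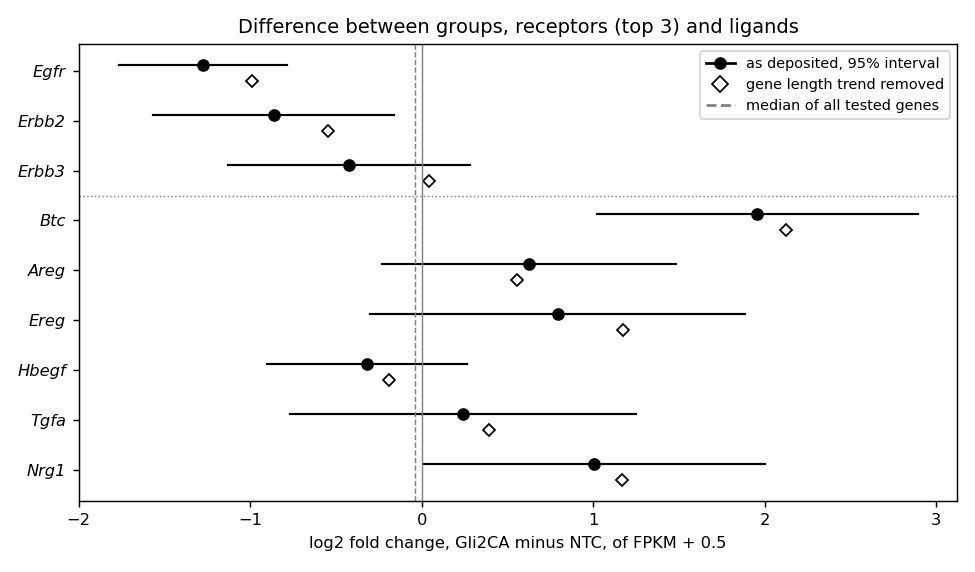
Log2 fold change of FPKM + 0.5, Gli2CA minus NTC, for each member with its 95% interval (filled points, n = 3 per group) and with the gene length trend removed (open diamonds). All 3 receptor estimates lie left of 0 as deposited, Erbb3 moves to 0.040 with the trend removed, and only Egfr, Erbb2, Btc and Nrg1 have intervals that leave out 0 as deposited.

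The makeup of the ligand pool on the FPKM scale differed between the groups. Btc held 26.5%, 19.7% and 34.1% of the summed FPKM of the 6 ligand genes in Gli2CA and 7.85%, 11.0% and 7.22% in NTC. Hbegf held 28.5% to 51.7% in Gli2CA and 61.4% to 67.4% in NTC, so its shares did not overlap between the groups although its own levels did. Because shares of a sum depend on each other, a higher Btc share leaves less for the rest, and the Hbegf shares are not a separate result. Areg held 23.9% to 29.7% in Gli2CA and 17.6% to 27.5% in NTC, which overlap. Ereg, Tgfa and Nrg1 together were a small part, with at most 5.18% for Nrg1. On the same scale there was 8.06, 2.94 and 10.1 times as much Btc as Egfr in Gli2CA tumors and 0.558, 0.617 and 0.661 times as much in NTC tumors. Btc and Egfr were taken as the members that differed most, so these ratios restate their differences.

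**Figure D3:**
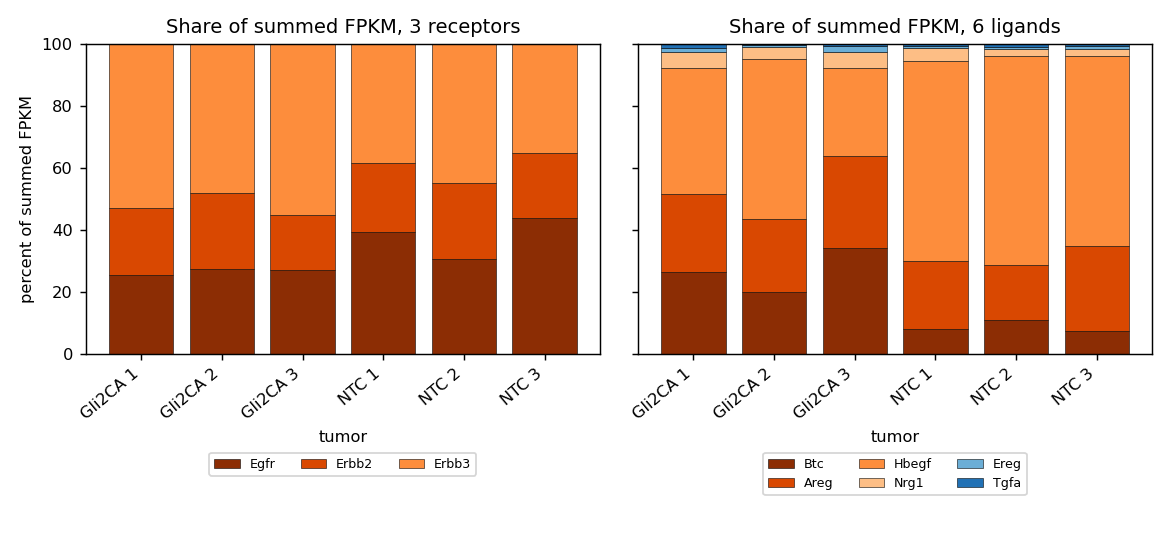
Percent of the summed FPKM of the 3 receptor genes (left) and of the 6 ligand genes (right) held by each gene in each tumor, with Gli2CA tumors left of NTC tumors. The Btc share is 19.7% to 34.1% in Gli2CA and 7.22% to 11.0% in NTC, and the Egfr share is 25.4% to 27.2% in Gli2CA and 30.6% to 43.9% in NTC.

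Of the other 6 genes of the receptor and ligand family, 2 passed the expression filter and 0 were called in limma or limma-voom. Nrg2, a further neuregulin, stood at 2.19, 1.86 and 1.05 FPKM in Gli2CA and 3.46, 3.97 and 2.30 FPKM in NTC, and its estimate of -0.78 (SE 0.32, log2 scale) was the list's only one at an unadjusted p under 0.05. Nrg4 differed by -0.35 on the log2 scale (SE 0.33). The median of these 2 genes was -0.57, and -0.71 with the length trend removed. Erbb4, the fourth receptor and another receptor for Btc, Hbegf and Ereg, did not pass the filter, and was listed at 0, 0.0913 and 0 FPKM in Gli2CA and 0.150, 0.333 and 0.0523 FPKM in NTC. Egf, Epgn and Nrg3 were also under the filter.

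Among 14 genes of ligand shedding and processing, 0 were called in limma or limma-voom, and 4 reached an unadjusted p under 0.05, with 1 higher and 3 lower, where 12.8% of all tested genes were higher and 14.7% lower at that level. Timp3, an inhibitor of the main sheddase ADAM17, had the smallest p of the list, at 471, 218 and 487 FPKM in Gli2CA and 1305, 936 and 835 FPKM in NTC. The groups did not overlap, and on the log2 scale they differed by -1.45 (SE 0.36, adjusted p = 0.0745 in limma). The protease gene Adam8 showed a log2 fold change of 0.86 (SE 0.34), and Rhbdf2, which helps ADAM17 to mature, one of -0.81 (SE 0.33). Adam17 itself stood at 44.9, 29.4 and 44.3 FPKM in Gli2CA and 52.1, 54.7 and 45.4 FPKM in NTC, and was picked out after its values were seen. The list's median was -0.44, and -0.22 with the length trend removed.

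Among 21 tested genes that inhibit or turn over the receptors, 0 were called in limma or limma-voom. At an unadjusted p under 0.05 in limma 1 was higher and 8 were lower, where 12.8% of all tested genes were higher and 14.7% lower. The median was -0.36, or -0.17 with the length trend removed. The phosphatase genes Ptprj and Ptpn1 had log2 fold changes of -1.10 (SE 0.24, adjusted p = 0.0664 in limma) and -0.91 (SE 0.22), and Cbl, a ubiquitin ligase that marks EGFR for breakdown, one of -0.82 (SE 0.25). The 1 gene on the other side was Errfi1, which encodes a feedback inhibitor of EGFR and was picked out after its values were seen. It stood at 113, 65.3 and 146 FPKM in Gli2CA and at 54.7, 57.7 and 53.7 FPKM in NTC, without overlap (log2 fold change 0.88, SE 0.30, adjusted p = 0.113 in limma). Sh3gl2 was under the filter. The entry taken for the symbol Hgs was listed at 0 in all 6 tumors, but other entries under that symbol were not sought, so Hgs cannot be called silent.

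Among 25 tested adaptors and signal relays, 0 were called in limma. At an unadjusted p under 0.05 in limma 2 were higher and 8 lower, where 12.8% of all tested genes were higher and 14.7% lower. Limma-voom called 1, Pik3r1 (adjusted p = 0.0494), where it called 0.664% of its tested genes. The median was -0.36, and -0.12 with the length trend removed. Pik3r1, the regulatory subunit of PI3 kinase, stood at 29.6, 23.6 and 26.6 FPKM in Gli2CA and 68.3, 62.9 and 54.0 FPKM in NTC, with a log2 fold change of -1.20 (SE 0.21). Vav2, a guanine nucleotide exchange factor, and Gab2, a docking protein, had log2 fold changes of -1.09 (SE 0.25) and -1.07 (SE 0.27). The 2 higher genes were Hras and Crk, with log2 fold changes of 0.80 (SE 0.24) and 0.67 (SE 0.28), picked out after their values were seen.

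Of 16 ERK feedback and early genes, which respond to the cascade below these receptors and below BRAF, 0 were called in limma or limma-voom. At an unadjusted p under 0.05 in limma 1 was higher and 4 were lower, where 12.8% of all tested genes were higher and 14.7% lower. The median was -0.21, or -0.11 with the length trend removed. Egr1, an early transcription factor, stood at 8.66, 5.92 and 4.55 FPKM in Gli2CA and 16.8, 23.7 and 14.1 FPKM in NTC (log2 fold change -1.45, SE 0.30, adjusted p = 0.0640 in limma). Spry4, a feedback inhibitor of receptor tyrosine kinase signalling, differed by a log2 fold change of -1.09 (SE 0.29), and Myc one of 0.73 (SE 0.21). Dusp6, the ERK phosphatase, stood at 119, 113 and 94.5 FPKM in Gli2CA and 121, 153 and 134 FPKM in NTC, and was picked out after its values were seen.

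**Figure D4:**
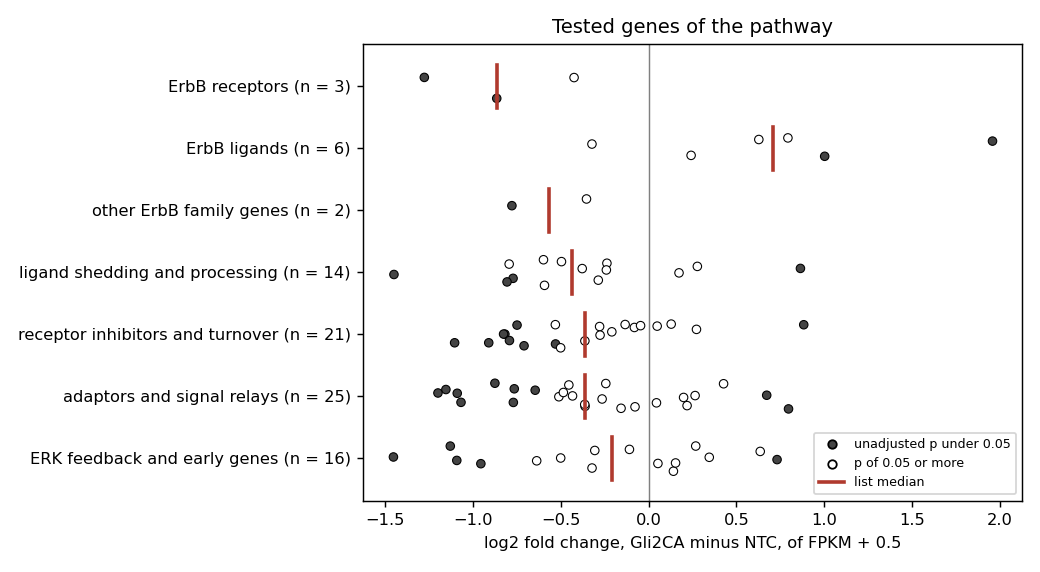
Log2 fold change of FPKM + 0.5, Gli2CA minus NTC, of each tested gene (points, filled at an unadjusted p under 0.05) in the receptor and ligand sets and 5 further lists of the pathway, with the list median in red. The ligand genes have a median of 0.71, while the 5 further lists have medians from -0.57 to -0.21, and from -0.71 to -0.11 with the length trend removed.

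Markers of other cell types that whole tumors hold moved with some of these genes. Keratinocyte and epithelial markers, 16 in all, summed to 172 to 600.2 FPKM in Gli2CA and 48.0 to 70.7 FPKM in NTC. Of these, 1 of 8 tested was called in limma, where 0.348% of all tested genes were. It was Lgals7, at 352, 118 and 520 FPKM in Gli2CA and 32.7, 41.2 and 30.0 FPKM in NTC. Lgals7 and Pkp1, the next most abundant, made up most of the sum, and estimates were positive for 4 and negative for 4 of the 8 tested. Cdh1 averaged 0.691 FPKM in Gli2CA and 1.97 FPKM in NTC and Sfn 2.90 FPKM in Gli2CA and 4.64 FPKM in NTC, both without overlap and picked out after their values were seen. Like Btc, Lgals7 was lowest in replicate 2 among the Gli2CA tumors. Without overlap, 4 of the 8 tested markers were higher and 2 were lower in Gli2CA, where 33.8% of all tested genes did not overlap in either direction. The higher ones included the keratins Krt14 and Krt10. Krt14 averaged 16.2 FPKM in Gli2CA and 0.160 FPKM in NTC. Krt10, named here with its values already known, stood at 6.18, 22.5 and 6.84 FPKM in Gli2CA. In NTC it stood at 3.79, 4.89 and 5.75 FPKM. Krt5, Krt1, Krt15, Krt17, Krt6a, Trp63, Dsg3 and Dsc3, further markers of squamous epithelium, were under the filter. None of these exceeded 0.317 FPKM in any tumor. Fibroblast markers, led by Col3a1 and Col1a1, had negative estimates for 11 of 12 genes and summed to 6366 to 9886 FPKM in Gli2CA and 11019 to 34032 FPKM in NTC, with the same direction as Egfr. Endothelial markers, led by Egfl7 and Pecam1, summed to 149 to 179 FPKM in Gli2CA and 174 to 256 FPKM in NTC, and macrophage markers, led by Lyz2 and C1qa, to 3176 to 4382 FPKM in Gli2CA and 4055 to 5960 FPKM in NTC. The first gene of each list had the other sign, with Egfl7 averaging 63.9 FPKM in Gli2CA and 39.8 FPKM in NTC and Lyz2 2000.0 FPKM in Gli2CA and 1765 FPKM in NTC. Of 12 T cell and innate lymphoid markers, led by Cd3d and Trac, 0 were called in limma or limma-voom. At an unadjusted p under 0.05 in limma 1 was higher and 8 were lower, where 12.8% of all tested genes were higher and 14.7% lower. Cd3d averaged 90.01 FPKM in Gli2CA and 65.8 FPKM in NTC, and Trac 21.7 FPKM in Gli2CA and 57.5 FPKM in NTC. Skeletal muscle markers, led by Acta1 and Mylpf, summed to 990.2, 17.2 and 333 FPKM in Gli2CA and 3.61, 2.90 and 1464 FPKM in NTC. Replicate 2 was lowest in Gli2CA, as it was for all the ligand genes, Hbegf and its negative estimate included. In NTC, replicates 1 and 2 were both low and replicate 3 lay far above them. Among NTC tumors Areg and Ereg were also highest in replicate 3, by less, while Nrg1 and Hbegf were highest in replicate 1 and Btc and Tgfa in replicate 2. The part of these cells in the receptor and ligand values was not tested.

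By the likeness of their log2 values over the 6 tumors, the genes closest to Egfr were Rel, Nipal3 and Sytl2, with a Pearson r of 0.996, 0.995 and 0.995. Those closest to Btc were Chrna1, Krt14 and Msx3, with an r of 0.998, 0.996 and 0.996. These values describe 6 samples that share 2 groups, and 1005 genes had an r above 0.9 with Egfr and 428 with Btc. Krt14, a basal keratin, stood at 16.9, 2.05 and 29.7 FPKM in Gli2CA and at 0.0318, 0.369 and 0.0800 FPKM in NTC.

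**Figure D5:**
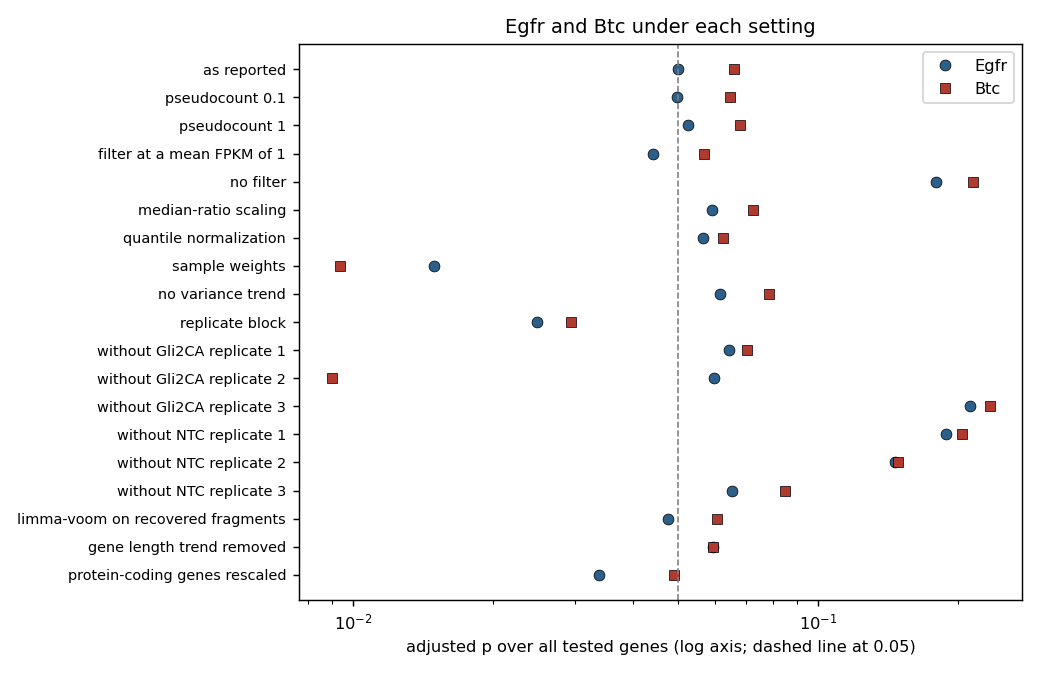
Adjusted p over all tested genes for Egfr (circles) and Btc (squares) as reported and under 18 other settings, on a log axis with the threshold of 0.05 dashed. Egfr is left of the line in 6 settings and Btc in 4, and with the gene length trend removed both lie at 0.0593, where the square covers the circle.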

How the data were processed

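RNA from 6 whole tumors was sequenced after poly-T selection, fragmentation and random hexamer priming, per the labels' protocols. The authors deposited FPKM per Ensembl gene and sample. The aligner, counting tool, genome build and strand setting behind them are not given in the sources here. Symbols, coordinates and transcript lengths came from GENCODE M21 (GRCm38) for 54409 of 54532 genes. FPKM times mean transcript length gave whole fragments, within 0.1, for 97.0% to 99.6% of low values per library. Limma 3.58.1 in R 4.3.3 (eBayes with a variance trend, two-sided, Benjamini-Hochberg) was run on log2(FPKM + 0.5), which understates changes of low genes. It covered 15820 genes that averaged 0.5 FPKM or more. The code was checked on simulated counts with equal excess spread for all genes, no length trend and no outlying tumor. That check therefore cannot vouch for the fit on these data. Because FPKM are not counts, limma-voom on the recovered fragments was only an alternative. It, the removal of the length trend and the rescaling of protein-coding genes were added after seeing the data. Genes named were all members, the 3 with the smallest p of each pathway list, the 2 most abundant of each marker list described, and the 3 most like Egfr and Btc. Members and lists were chosen with earlier results of these data known. No 2 libraries were alike within sampling noise, with a mean chi-square per gene of at least 52.5 between them, where about 1 is noise. Tables were made with Python 3.11.15, numpy 2.4.6 and pandas 2.3.3 and plots with matplotlib 3.10.9.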

Additional observations from a re-analysis of the deposited data

How the results depend on the processing

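Direction held in all 18 alternatives for 7 of the 9 members. Erbb3 turned to 0.040 with the gene length trend removed, and Tgfa ranged from -0.21 to 0.68 over the fits that left out 1 library. Egfr passed at a pseudocount of 0.1 (-1.33), a filter at a mean FPKM of 1 (-1.28), sample weights (-1.29), the replicate block (-1.28), limma-voom (-1.34) and protein-coding genes rescaled (-1.47). Btc passed with sample weights (2.35), the replicate block (1.96) and protein-coding genes rescaled (1.76), and ranged from 1.65 to 2.49 over the fits that left out 1 library. Nrg1 passed with sample weights alone (1.41).

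Rescaling on protein-coding genes moved the median of all genes to -0.29, and relative to it Egfr lay at -1.18 and Btc at 2.05. Deviations from the group means correlated at 0.353, 0.221 and 0.0237 for samples that shared numbers 1, 2 and 3. Samples with unlike numbers correlated at -0.285 to 0.0776, and Gli2CA replicate 3 no better with its own number than with number 1. Whether the replicate numbers pair the samples is therefore not settled. Members called, higher and lower, were 2 and 1 with sample weights, 1 and 1 when protein-coding genes were rescaled or a replicate block was used, the block calling 12.2% of all tested genes, and 0 and 1 at a pseudocount of 0.1, a filter at 1 and limma-voom. Over the fits that left out 1 library they were 0 to 1 higher and 0 lower.

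Of all genes, 42 were called higher and 13 lower. These counts were 53 and 28 at a pseudocount of 0.1, 76 and 69 with a filter at 1, 3 and 0 with no filter, 31 and 6 with median-ratio scaling, 29 and 7 with quantile normalization, 704 and 884 with sample weights, 901 and 1027 with the replicate block, 51 and 54 with limma-voom, 21 and 5 with the length trend removed and 106 and 631 with protein-coding genes rescaled. Over the fits that left out 1 library they ranged from 4 to 75 higher and 0 to 22 lower, each of the 6 libraries moving them by over 1.5 times in at least 1 direction. The cause of these shifts was not tested. With no filter, 35796 genes were tested.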
